A study of Mus musculus with 9 samples.

Results

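Rbm3 and Cirbp encode the cold-inducible RNA-binding proteins of the glycine-rich family, and are described here in ATDC5 cells, a mouse chondrogenic line. They were taken by symbol from the 26202 genes of the deposited table, which gave 2 genes of 26202, and both had enough reads to be tested. Rbm3 was chosen by its measured gap between acetate and ethanol, and Cirbp because it belongs to the same family. The study compared 3 libraries each of control, acetate and ethanol, and its design text asks whether acetate carries effects of ethanol on genes of bone and cartilage. All 9 cultures, controls included, were labelled as grown in DMEM/F-12 with 5% FBS and antibiotics, then supplied with insulin-transferrin-selenium, 10 mM beta-glycerophosphate and ascorbate at 50 µg/mL for the treatments. No source used here gives the dose or duration of either treatment, or any vehicle of the controls. The 3 libraries of a group are replicates of 1 cell line. Nothing in the labels says that they were separate cultures, so p-values measure the spread between these libraries, which may be technical.

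Rbm3 and Cirbp are small proteins with an RNA recognition motif at the amino end and a tail rich in arginine and glycine. In mammalian cells their mRNA rises when temperature falls by a few degrees, and hypoxia and other stresses are also known to change it. Both bind many transcripts: in mouse cells they affect the choice of polyadenylation sites, Cirbp is needed for strong circadian amplitude through Clock mRNA, and Rbm3 favours translation of its targets. No temperature was varied here.

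The coding sequences are related but do not share long runs, which bears on whether reads of one could be counted for the other. The windows below are bases 160 to 242 of each coding sequence, counted from the start codon, in the stretch that encodes the RNA recognition motif. They come from the principal GENCODE transcripts on GRCm38, and the capitals mark the longest run found in both coding sequences.
Rbm3: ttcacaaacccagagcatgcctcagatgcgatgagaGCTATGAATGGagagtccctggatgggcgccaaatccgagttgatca
Cirbp: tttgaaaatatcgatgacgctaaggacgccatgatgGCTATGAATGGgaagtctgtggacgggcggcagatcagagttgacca
The shared run is 11 bases long, at bases 196 to 206 of both, and 56 of the 83 bases in the windows are identical. The Rbm3 coding sequence has 154 codons and that of Cirbp 172, without the stop.

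The Rbm3 gene (ENSMUSG00000031167.16) lies on chromosome X, 8138975 to 8145880 on the minus strand of GRCm38, with 11 annotated transcripts, of which 6 are coding. Cirbp (ENSMUSG00000045193.13) lies on chromosome 10, 80165985 to 80172786 on the plus strand, with 7 transcripts, of which 2 are coding and 5 are subject to nonsense-mediated decay or retain an intron. The deposited values are per gene, so these forms cannot be told apart. Of the 1176 runs of 50 bases in the 1225-base Rbm3 transcript, 366 (31.1%) also occur in transcripts of the same strand from processed pseudogenes, copies of an mRNA inserted elsewhere in the genome. Rbm3-ps on chromosome 1 holds 26.8% and Gm10156 on chromosome 7 holds 17.7%. On the opposite strand, Phospho2 shares 88 of the runs and Rbm3os 47. Rbm3 values are uncertain to the extent that the counting split or dropped such reads, and the pseudogenes were not analysed here. None of the 1272 runs of Cirbp was found in another gene.

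The libraries held 28.7 to 41.9 M reads, recovered from the table. Levels are given in CPM, reads scaled to library size and then between libraries by TMM (trimmed mean of M values). Fold changes were taken from log2(CPM + 1), with the standard error of a limma fit over all 9 libraries and the 12868 genes whose mean was 1 CPM or more. Genes past the threshold had a limma adjusted p under 0.05, with Benjamini-Hochberg adjustment over all 12868. All 8 cartilage markers were present, with summed levels of 11503 to 14996 CPM in control, 6043 to 6739 CPM in acetate and 5445 to 6835 CPM in ethanol. All 3 osteoblast markers were present as well, at a sum of 6946 to 8157 CPM in control, 4529 to 7534 CPM in acetate and 4234 to 4741 CPM in ethanol. Most of this sum was Ibsp, at 7224.6, 4185.5 and 6470.7 CPM in acetate replicates 1, 2 and 3, so replicate 2 set the acetate low. In acetate the other markers did not fall. Bglap was at 20.69 to 27.67 CPM, above its highest control of 18.68 CPM, and Sp7 stayed inside its control range. Of the markers of adipocytes, skeletal muscle, endothelium and macrophages, only 1, from endothelium, had a mean of 1 CPM, the highest sum was 2.15 CPM, and Myog was at 0 in every library. In such bulk samples, fewer cells of a type and less RNA per cell cannot be told apart. The part of the cartilage and osteoblast markers in the results for Rbm3 and Cirbp was not tested.

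Acetate replicate 2 stood apart, and both genes were displaced in it, in opposite directions. Its log2 difference from the mean of the other acetate libraries followed the GC content of the longest transcript, with Pearson r = 0.808 across 12742 genes, which are not independent replicates. Rbm3, with a longest transcript of 41.5% GC, was displaced by -1.09, and the 855 genes within 1 percentage point of that GC content had a median of -1.02 (5th to 95th percentile -1.84 to -0.11). Cirbp, at 53.7% GC, was displaced by 0.49, and its 1338 neighbours in GC content had a median of 0.27 (-0.12 to 0.60). Both genes thus lay inside the range of genes of like GC content. Acetate levels of Rbm3 and Cirbp, and their differences between groups, are therefore given with and without it.

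**Figure D1:**
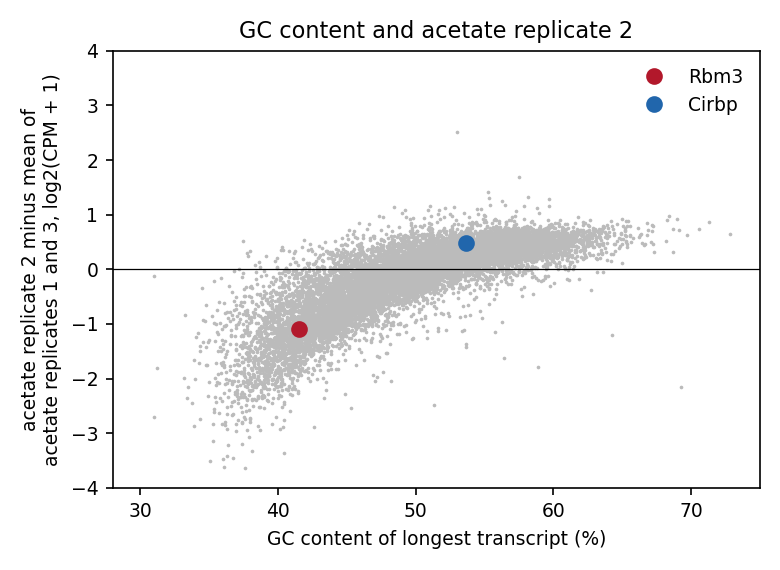
Each grey point is a gene, with the GC content of its longest transcript (%) on the x axis and the log2(CPM + 1) of acetate replicate 2 minus the mean of acetate replicates 1 and 3 on the y axis. Rbm3 (red, -1.09) and Cirbp (blue, 0.49) lie within the cloud of genes of like GC content.

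Rbm3 mRNA stood highest with ethanol. In control it was at 299.7, 265 and 371 CPM in replicates 1, 2 and 3, a mean of 312 ± 53.7 CPM (SD, n = 3). In acetate it was at 253, 128 and 294 CPM, a mean of 225 ± 86.8 CPM (SD, n = 3). In ethanol it was at 678, 724 and 669 CPM, a mean of 690.4 ± 29.3 CPM (SD, n = 3). Every ethanol library lay above every control and every acetate library, while acetate and control overlapped. The order of the means was ethanol, control, acetate, and the last pair did not differ beyond their spread. Without acetate replicate 2, the acetate level was 274 ± 29.1 CPM (SD, n = 2), a mean still inside the control range. Each value rests on 4389 to 30096 recovered reads.

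Since Rbm3 was chosen for these values, its fold changes are a description and carry no test. Ethanol against control was 1.16 ± 0.27 on the log2 scale, which is 2.23 times the control level. By this log2 change Rbm3 ranked 40 of 12868 genes, and 8 of the 2462 genes whose mean was 100 CPM or more. As a difference in CPM, the rise of 378 CPM ranked 2 of 12868. Rbm3 was thus among the most abundant transcripts that were higher with ethanol: it exceeded 95.2% to 97.2% of tested genes in the control libraries and 99.2% in all ethanol libraries. All ethanol libraries lay above all controls for 20.1% of tested genes, and nothing is read from the place of Rbm3 among them.

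Acetate against ethanol was -1.70 ± 0.27 for Rbm3 on the log2 scale, 3.24 times lower in acetate. This was the 2nd lowest log2 difference of all tested genes, and the difference of -465 CPM was the lowest. Without acetate replicate 2 the log2 difference was -1.33. For 12.5% of tested genes all acetate libraries lay below all ethanol libraries. Acetate against control was -0.54 ± 0.27, and -0.18 without acetate replicate 2. These comparisons share their libraries and are not independent of each other.

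The libraries bear replicate numbers, and the Rbm3 difference had the same sign at every number. Ethanol minus control was 1.18, 1.44 and 0.85 on the log2 scale for numbers 1, 2 and 3. Acetate minus control was -0.24, -1.05 and -0.33. Acetate minus ethanol was -1.42, -2.49 and -1.18. Number 2 had the widest gap in each comparison, also in ethanol minus control, in which acetate replicate 2 takes no part. After a lowess fit on GC content was removed from each library, Rbm3 was at 278, 248 and 341 CPM in control and at 226, 248 and 282 CPM in acetate. In ethanol it was then at 637, 659.6 and 594 CPM, so the gap between ethanol and the other groups was still there, and acetate replicate 2 was no longer the lowest of its group.

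The mean of both treatments against control is orthogonal to acetate against ethanol, the gap that chose Rbm3, but uses the same treated libraries. Orthogonality makes it independent of the choice only where groups have equal spread. The Rbm3 SD was 86.8 CPM in acetate and 29.3 CPM in ethanol, so its p-values are not free of the choice. The mean of both treatments against control was 0.31 ± 0.24 on the log2 scale (95% interval -0.23 to 0.84). It did not pass the threshold (adjusted p = 0.569, limma), with 1.80% of tested genes past it (232 genes, or 566 with the replicate number as a block). Once the GC trend was taken out of all 9 libraries it was 0.47 ± 0.11. It then passed (adjusted p = 0.0247, limma), among 1201 genes past the threshold. With the replicate block added it also passed (adjusted p = 0.0103, limma), among 3599 genes past the threshold. Over the 15 alternatives that weigh acetate and ethanol alike, which keep it orthogonal, the adjusted p ran from 0.0103 to 0.903, and these 2 passed. Without acetate replicate 2 it was 0.49 ± 0.11. With fewer acetate than ethanol libraries the comparison is no longer orthogonal to the gap that chose Rbm3, so that value is given without a test. The mean of both treatments joins values of opposite sign from the libraries of that gap. With the GC trend removed, ethanol against control was 1.13 and acetate against control -0.19. A pass is therefore no sign of a rise shared by both treatments.

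**Figure D2:**
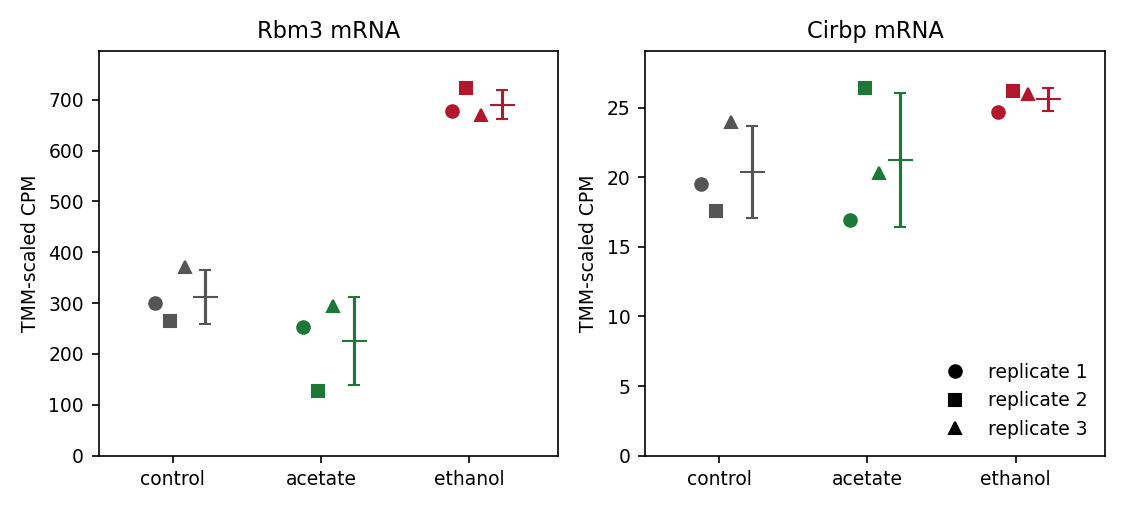
TMM-scaled CPM of Rbm3 (left) and Cirbp (right) in each library, by group on the x axis, with a symbol for each replicate number; bars are mean ± SD of 3 libraries and both y axes start at 0. The ethanol libraries of Rbm3 sit between 669 and 724 CPM, above all others, while those of Cirbp sit between 24.7 and 26.2 CPM, close to the highest control and below acetate replicate 2.

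Cirbp mRNA was less abundant and varied less between groups. In control it was at 19.5, 17.6 and 24.0 CPM, a mean of 20.4 ± 3.29 CPM (SD, n = 3). In acetate it was at 16.9, 26.4 and 20.3 CPM, a mean of 21.2 ± 4.82 CPM (SD, n = 3). In ethanol it was at 24.7, 26.2 and 26.0 CPM, a mean of 25.6 ± 0.823 CPM (SD, n = 3). The lowest ethanol library lay just above the highest control, and ethanol overlapped with acetate through acetate replicate 2. Without that library, acetate was at 18.6 ± 2.37 CPM (SD, n = 2), with both libraries below all ethanol libraries and a mean inside the control range. Each value rests on 506 to 1126 recovered reads.

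Cirbp did not pass the threshold in any comparison tested. Ethanol against control was 0.33 ± 0.17 on the log2 scale (95% interval -0.06 to 0.71), 1.25 times the control level, with an adjusted p of 0.338 by limma. Higher in 3 of 3 same-numbered pairs, it differed by 0.32, 0.55 and 0.11. Of all tested genes, 3.93% passed the threshold for ethanol against control (506 genes, 1.48% higher and 2.45% lower, or 1074 with the replicate block), and for 20.1% all ethanol libraries lay above all controls, so the separation of the Cirbp groups is a common one. With the replicate block and the GC trend removed together, Cirbp passed, at 0.34 ± 0.09 with an adjusted p of 0.0240 by limma, as did 35.9% of tested genes. Over all alternatives its adjusted p ran from 9.87e-05 to 0.693, and the lowest value, from the replicate block without acetate replicate 2, comes from a fit that pooled the spread over genes of like level and is no measure of strength.

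Acetate against control was 0.05 ± 0.17 for Cirbp (95% interval -0.34 to 0.43, adjusted p = 0.891, limma), where 1.00% of tested genes passed the threshold. Its sign turned to -0.12 without acetate replicate 2 and to -0.049 without control replicate 2. The same-numbered differences were -0.19, 0.56 and -0.23, with a positive sign only at the number of acetate replicate 2. The mean of both treatments against control was 0.19 ± 0.15 (95% interval -0.15 to 0.52, adjusted p = 0.581, limma). Acetate against ethanol was -0.28 ± 0.17, given without a test because it is the comparison from which the pair was chosen. It was -0.44 without acetate replicate 2 and -0.14 without acetate replicate 1.

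Compared per length, Rbm3 was the more abundant of the pair in every library. Levels were divided by the length of a principal transcript, for Rbm3 the one of middle length, at 1225 bases. Its other transcripts marked as principal have 1152 and 2792 bases, and the longest would give lower levels per kb. The Rbm3 level was 255 ± 43.8 CPM per kb in control, 184 ± 70.9 in acetate and 564 ± 23.9 in ethanol (SD, n = 3). For Cirbp, with 1321 bases, it was 15.4 ± 2.49 CPM per kb in control, 16.1 ± 3.65 in acetate and 19.4 ± 0.623 in ethanol (SD, n = 3). Without acetate replicate 2, the acetate levels were 223 ± 23.8 CPM per kb for Rbm3 and 14.1 ± 1.79 for Cirbp (SD, n = 2). Which transcripts were used in these cells was not measured, so the lengths are those of the annotation.

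The ratio of Rbm3 to Cirbp within a library, which no scaling between libraries can change, was nearly constant inside the control and ethanol groups. In control it was 15.4, 15.1 and 15.4, a mean of 15.3 ± 0.190 (SD, n = 3) from CPM. In ethanol it was 27.5, 27.7 and 25.7, a mean of 27.0 ± 1.07 (SD, n = 3). In acetate it was 14.9, 4.83 and 14.5, so acetate replicates 1 and 3 were close to control and acetate replicate 2 was far below. The ethanol ratios lay above all others. Per length, the ratio was 16.5 ± 0.205 in control and 29.1 ± 1.15 in ethanol (SD, n = 3).

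Pooled over the groups, the ratio of Rbm3 to Cirbp varied less within groups than either gene once acetate replicate 2 was left out. The control library with most Rbm3 also had most Cirbp, and the one with least Rbm3 had least Cirbp. In ethanol the order differed, since replicate 3 had the least Rbm3 and replicate 1 the least Cirbp. There the ratio (27.0 ± 1.07) had a relative spread no smaller than that of Cirbp (25.6 ± 0.823 CPM, SD, n = 3). The pooled SD of the log2 ratio within groups was 0.04 over 8 libraries, against 0.17 for Rbm3 alone and 0.17 for Cirbp alone. Among 10932 genes with means of 5 CPM or more set against Rbm3 in the same way, Cirbp had the 5th smallest SD, and the median was 0.19. Set against Cirbp, Rbm3 had the 23rd smallest, with a median of 0.18. The libraries share depth and base composition effects, and the ratio was taken up after the data were seen, so this is a description.

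**Figure D3:**
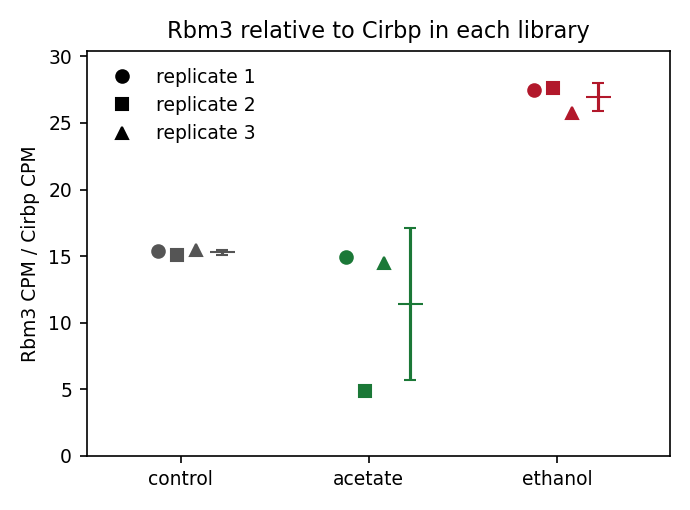
Ratio of Rbm3 CPM to Cirbp CPM in each library, by group, with a symbol for each replicate number and bars for mean ± SD of 3 libraries. Control libraries lie at 15.1 to 15.4 and ethanol libraries at 25.7 to 27.7, while acetate replicate 2 lies at 4.83.

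Rbm3os, an antisense RNA that overlaps the exons of Rbm3 by 94 bases, was measured beside it. It was at 2.15 ± 0.401 CPM in control, 1.95 ± 0.0844 CPM in acetate and 2.01 ± 0.157 CPM in ethanol (SD, n = 3). It did not follow the ethanol level of Rbm3: ethanol against control was -0.06 ± 0.12 on the log2 scale (95% interval -0.33 to 0.21, adjusted p = 0.865, limma). The kit keeps strand, per the labels, but no source used here says whether counting used it, so reads of the overlap cannot be assigned with certainty.

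Genes reported to act upstream of Rbm3 or Cirbp were read beside the Cirbp promoter. The mild-cold response element, TCCCCGCC, is reported for the Cirbp promoter and is bound there by the transcription factor Sp1. Of the promoter windows of RefSeq on GRCm38.p6, 250 bases before to 50 after a start, which were searched on both strands (reverse complement GGCGGGGA), 1 for Cirbp holds it once, 247 bases before the start. The window is chr10:80167589-80167888 on the plus strand, and the capitals mark the match.
Cirbp promoter: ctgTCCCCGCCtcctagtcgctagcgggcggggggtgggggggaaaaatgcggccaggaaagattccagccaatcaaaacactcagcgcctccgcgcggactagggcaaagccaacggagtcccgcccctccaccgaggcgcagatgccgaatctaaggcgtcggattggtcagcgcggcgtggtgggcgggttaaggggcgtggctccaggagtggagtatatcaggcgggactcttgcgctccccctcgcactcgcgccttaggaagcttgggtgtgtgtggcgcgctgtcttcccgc
A second Cirbp window has no match. The set of windows held none for Rbm3, so its promoter was not searched. The letters occur in 5.38% of all 32851 windows of this length, so a match is a description and no evidence of a site. Sp1, named here after its values were seen, was at 230.2 ± 4.46 CPM in control, 188 ± 73.9 CPM in acetate and 209 ± 15.9 CPM in ethanol (SD, n = 3). Neither comparison of Sp1 with control passed (adjusted p = 0.464 for acetate and 0.845 for ethanol, limma).

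Of the 12 genes in the list of reported upstream regulators, 9 were tested. None passed for acetate, with 1 at an unadjusted p under 0.05 by limma, and 1 fell with ethanol, where 2.45% of all tested genes fell. The median log2 change was -0.25 with acetate and -0.09 with ethanol, against -0.01 and -0.00 over all tested genes. Without acetate replicate 2 the acetate median was -0.012. The gene that fell was Trpv4, a calcium channel that opens with warmth and stretch and is known for its role in chondrocytes. It was at 225, 189 and 246 CPM in control, at 125, 158 and 120.1 CPM in acetate and at 123, 117 and 125 CPM in ethanol. All treated libraries lay below all controls, which held for 8.14% of tested genes with acetate and 23.3% with ethanol. Ethanol against control was -0.84 ± 0.14 (adjusted p = 0.0144, limma) and acetate against control -0.71 ± 0.14 (adjusted p = 0.0562, limma). The ethanol call was lost without control replicate 1 or 3 or any 1 ethanol library, with adjusted p from 0.0573 to 0.0908.

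Reported targets and effectors showed 1 gene past the threshold of 12 tested, with acetate. At an unadjusted p under 0.05 by limma there were 5 of 12 with acetate and 2 of 12 with ethanol. Of all tested genes, 14.6% and 19.0% had such an unadjusted p. Ccnd1, which encodes the cell-cycle regulator cyclin D1, rose from 107 ± 3.60 CPM in control to 154 ± 10.5 CPM in acetate (0.52 ± 0.10, adjusted p = 0.0476, limma), with 0.505% of tested genes higher. All acetate libraries lay above all controls, as for 11.4% of tested genes. The call was lost without control replicate 1, 2 or 3, acetate replicate 3 or any 1 ethanol library (adjusted p 0.104 to 0.262). It held in 10 of 25 alternatives, and was also lost with a pseudocount of 0.1, the filter at 5 CPM, plain CPM or quantile scaling, no mean trend, robust moderation, voom and only the groups compared. In ethanol Ccnd1 was at 119 ± 2.42 CPM, with a log2 change of 0.16 (adjusted p = 0.447, limma). The median of the list was -0.16 with acetate and -0.06 with ethanol, and without acetate replicate 2 the acetate median was 0.0019. Rtn3 and Clock of the same list were looked at for their known ties to the pair, after their values were seen. Rtn3, a reticulon reported as a translational target of Rbm3 in mouse neurons, was at 218 ± 8.04 CPM in control and 206 ± 7.77 CPM in ethanol. Clock, a core clock gene whose mRNA Cirbp is reported to bind in mouse, was at 189.6 ± 16.4 CPM in control and 213 ± 28.4 CPM in ethanol. Both ethanol changes missed the threshold, at -0.085 (adjusted p = 0.883, limma) and 0.16 (adjusted p = 0.851, limma).

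The other RNA-binding proteins with cold shock domains or related glycine-rich tails showed 1 call among 7 tested of 11, with acetate, where 0.505% of all tested genes were higher. Csdc2, a cold-shock-domain protein, rose from 2.93 ± 0.597 CPM in control to 6.28 ± 1.09 CPM in acetate (0.89 ± 0.16, adjusted p = 0.0355, limma), and all acetate libraries lay above all controls, as for 11.4% of tested genes. In ethanol it was at 3.44 ± 0.445 CPM (0.18, adjusted p = 0.597, limma). Its call in acetate was lost without control replicate 1, 2 or 3, acetate replicate 3 or any 1 ethanol library (adjusted p 0.0650 to 0.197), and also with no filter (0.0756), quantile scaling (0.0506) or only the groups compared (0.163). No relative passed with ethanol, also at an unadjusted p under 0.05 (0 of 7, limma), and the median there was -0.01. With acetate 2 of 7 had such an unadjusted p, and the median was 0.06.

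None of the 21 genes of the heat shock response, which counteracts protein unfolding, passed with acetate or ethanol. At an unadjusted p under 0.05 by limma there was 1 of them in each comparison, and the medians were -0.00, or 0.063 without acetate replicate 2, and -0.05. None of the 19 splicing regulators that respond to temperature passed either, with 0 and 2 at an unadjusted p under 0.05 by limma. Their medians were -0.20 with acetate and 0.10 with ethanol, and without acetate replicate 2 the acetate median was 0.05 and 3 rose and 2 fell with ethanol. Fitted with voom on recovered reads, both of these lists again held 0 genes past the threshold in either comparison. Other settings did call some, as given below. Of the 18 clock genes, none passed with acetate and 1 with ethanol, while 5 and 6 had an unadjusted p under 0.05 by limma. Of all tested genes, 3.93% passed with ethanol, and 14.6% with acetate and 19.0% with ethanol had such an unadjusted p. The clock medians were 0.21 with acetate, or 0.15 without acetate replicate 2, and 0.12 with ethanol. In each comparison 12 of the 18 clock genes had a positive change, so the 1 gene that passed with ethanol went against most of its list. Per3, a period gene, fell from 35.2 ± 2.51 CPM in control to 22.2 ± 1.43 CPM in ethanol (-0.64 ± 0.13, adjusted p = 0.0318, limma). That call was lost without any 1 control or ethanol library (adjusted p 0.0707 to 0.169), and also with plain CPM scaling (0.0628) or quantile scaling (0.0720). Without acetate replicate 2, which otherwise enters the spread of every comparison, 2 clock genes rose and 4 fell with ethanol. In the same fit 2 heat shock genes, 2 upstream regulators and 1 target fell with ethanol and 1 upstream regulator with acetate. Over the 6 lists, 2 genes passed for ethanol, 7 with the replicate block and 16 without acetate replicate 2, where 3.93%, 8.35% and 21.5% of all tested genes passed. With the GC trend removed, 3 splicing regulators rose and 2 fell with ethanol, where 15.9% of all tested genes passed. With the block and no acetate replicate 2, 9 rose and 2 fell, where 50.2% passed. With the block and the GC trend removed, 4 heat shock genes fell with ethanol and 1 rose with acetate, where 35.9% and 17.5% passed. Of the clock genes, 9 rose and 4 fell with ethanol in that fit, and 5 rose and 1 fell with acetate.

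**Figure D4:**
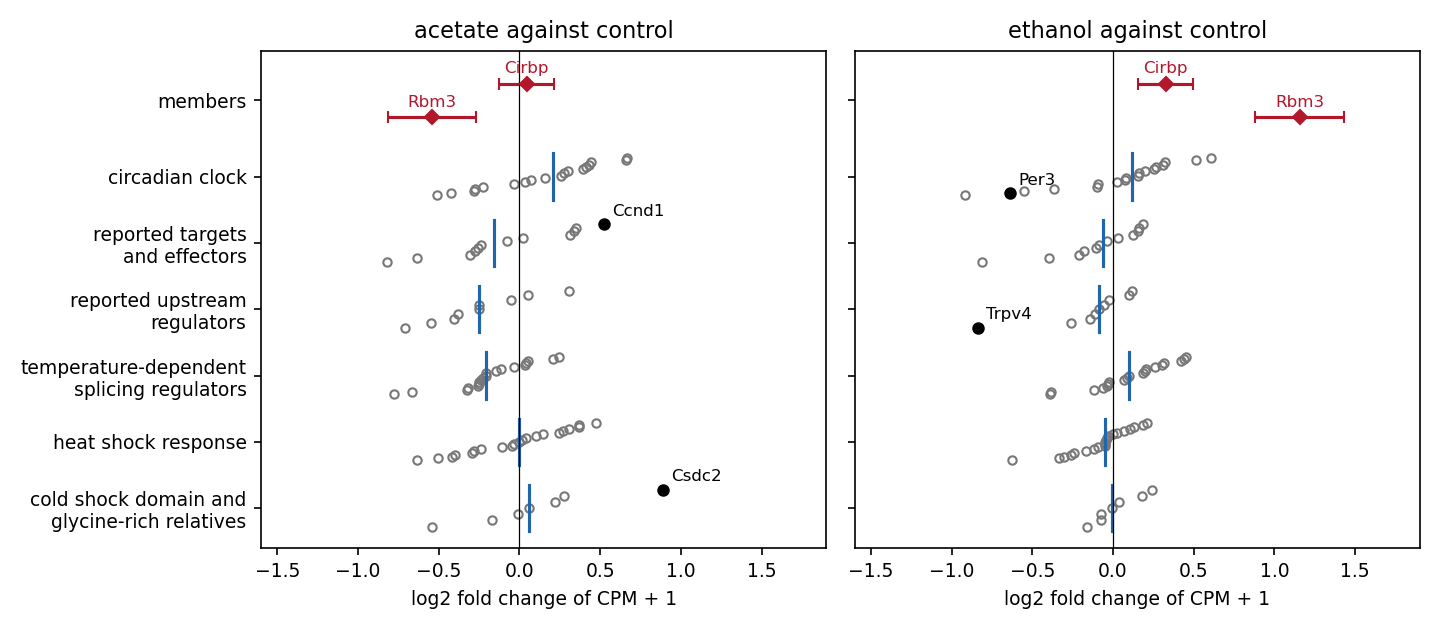
Log2 fold change of CPM + 1 against control (x axis) for acetate (left) and ethanol (right), with Rbm3 and Cirbp as red diamonds with standard errors and each tested list gene as a point in the row of its list. Blue bars are list medians, and filled points are the genes past the threshold, which are Csdc2 and Ccnd1 for acetate and Trpv4 and Per3 for ethanol.

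The genes whose profile over the libraries was most like that of Rbm3 also stood highest in ethanol and lowest in acetate replicate 2. Pearson r of log2(CPM + 1) over 9 libraries was 0.984 for Lancl2, 0.983 for H3f3b, 0.981 for Ino80c, 0.980 for Hmgb3 and 0.977 for Gsr. Over the 8 libraries without acetate replicate 2 their r was 0.965 or more. A place among the 50 highest r there was a condition for being named, and 15 of the 50 highest over 9 libraries met it. H3f3b, which encodes histone H3.3, was at 692 ± 33.7 CPM in control, 542 ± 119 CPM in acetate and 998 ± 53.6 CPM in ethanol (SD, n = 3). Hmgb3, a chromatin protein, was at 22.8 ± 2.21, 20.4 ± 7.19 and 39.9 ± 3.21 CPM. Gsr, glutathione reductase, was at 76.5 ± 3.03, 70.6 ± 5.88 and 94.4 ± 4.33 CPM. The libraries of a group and the displaced library are shared by all these profiles, and H3f3b encodes the same protein as H3f3a, so its reads may be uncertain where the copies are alike.

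The genes most like Cirbp were high in acetate replicate 2 and in ethanol. Their r over 9 libraries was 0.984 for Npepl1, 0.980 for Tcf7l1, 0.979 for Armc5, 0.978 for Zc3h7b and 0.973 for C87436. Tcf7l1, a transcription factor of the Wnt pathway, was at 99.1 ± 10.6 CPM in control, 102 ± 12.3 CPM in acetate and 119 ± 1.03 CPM in ethanol (SD, n = 3). Npepl1, an aminopeptidase-like gene, was at 34.3 ± 4.74, 36.5 ± 7.76 and 43.8 ± 1.22 CPM. Rbm3 and Cirbp themselves had an r of 0.378 over 9 libraries and 0.921 over the 8 without acetate replicate 2.

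**Figure D5:**
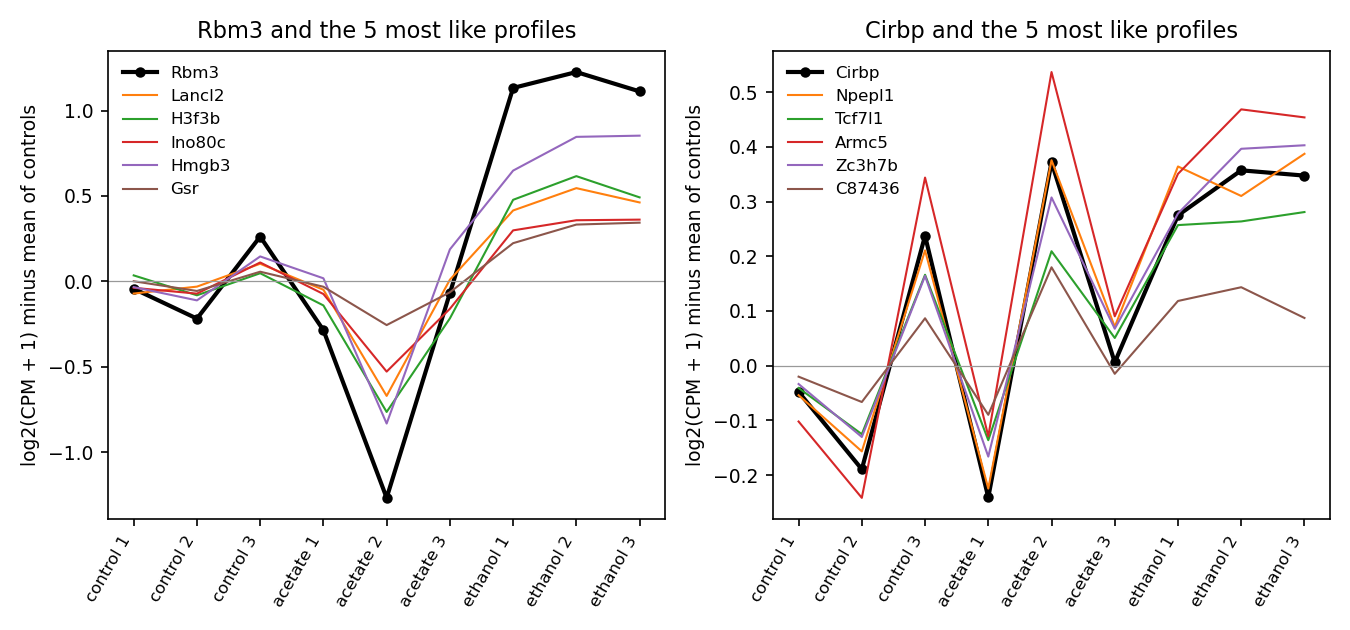
Log2(CPM + 1) minus the mean of the controls (y axis) in each of the 9 libraries (x axis) for Rbm3 (left, black) and Cirbp (right, black) with the 5 genes most like each. The lines join libraries to make profiles comparable and stand for no order; the Rbm3 profiles dip in acetate replicate 2 and the Cirbp profiles peak there.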

How the data were processed

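The authors deposited log2 values for 26202 genes, TMM-normalised by the name of the table, and the submitters' processing notes list the build mm10 and the tools STAR 2.7.8a, Bowtie2 2.2.5 and Partek without saying what each did. No source used here gives the annotation or the counting. Each library's floor, equal to an offset of 1e-05 read, was subtracted from the unlogged values, which gave TMM-scaled CPM and the library sizes. Between 85.6% and 87.2% of a library's values of 1 to 20 reads were whole (tolerance 0.02 read), which was too few to treat them as counts.

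log2(CPM + 1) of the 12868 genes whose mean was 1 CPM or more was fitted with limma 3.58.1 (R 4.3.3), with 3 group means, a mean trend and Benjamini-Hochberg adjustment. The added 1 understates changes of low genes. The fit was tested on simulated data. Members, lists and tests were chosen with earlier results of these data known. Besides Rbm3 and Cirbp, the text names up to 4 genes past the threshold per list, and per member the 5 genes of highest r that were in the 50 highest with and without acetate replicate 2, with a mean of 5 CPM or more. Transcripts and GC content came from GENCODE M21 (GRCm38, the build of mm10), with GC for 12742 tested genes. Lowess used a span of 0.3.

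Replicate numbers come from the labels. Deviations of same-numbered libraries correlated at 0.554, 0.363 and 0.667 for ethanol and control and at 0.150, 0.251 and 0.615 for acetate and ethanol. For acetate and control they correlated at 0.245, -0.101 and 0.408. Libraries of unlike number were not correlated, so whether the numbers mark pairs was not tested. Same-numbered differences are a description, and the replicate block was an alternative in every comparison. Alternatives changed the pseudocount, filter, scaling, variance model, library weights, block, GC trend and libraries used. Python 3.11.15, pandas 2.3.3 and matplotlib 3.10.9 served for tables and plots.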

Additional observations from a re-analysis of the deposited data

How the results depend on the processing

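Of 445 results under alternatives, 310 kept their direction and call or stayed near their value, and 5 turned in sign, all of them Cirbp in acetate against control. That value (0.05) became -0.074 with the GC trend removed, with and without the replicate block, and -0.16 with the block and no acetate replicate 2, and ran from -0.12 to 0.19 with each library left out. Rbm3 in the mean of both treatments (0.31) passed the threshold at 0.47 with the GC trend removed, with or without the replicate block. It was 0.59 with library weights and 0.47 with the block and no acetate replicate 2. With each library left out it ran from 0.19 to 0.49. Weights and fits without 1 treated library weigh acetate and ethanol unequally, so there the comparison draws on the gap that chose Rbm3. Values of Rbm3 from those fits are given without a test. Cirbp in the same comparison passed at 0.21 with library weights and ran from 0.09 to 0.30 with each library left out. In ethanol against control Cirbp passed at 0.39 with library weights, 0.34 with the block and GC correction and 0.33 with the block and no acetate replicate 2, and ran from 0.23 to 0.45 with each library left out. The replicate block alone changed no call of Rbm3 or Cirbp, at 0.31 (adjusted p = 0.442, limma) for Rbm3 in the mean of both treatments and 0.33 (adjusted p = 0.281, limma) for Cirbp in ethanol. Among the untested values of Rbm3, acetate against control moved to -0.063 with library weights and ran from -0.78 to -0.18 with each library left out; ethanol against control stayed between 1.05 and 1.33 and acetate against ethanol between -1.93 and -1.31 under every alternative run. Cirbp in acetate against ethanol ran from -0.48 to -0.14. Weights gave acetate replicate 2 a weight of 0.0442. Counts of genes past the threshold moved most. For acetate (129) they were 52 with a filter at 5 CPM, 5016 with weights, 293 with the block, 20 with only the groups compared, 650 with the GC trend removed, 2253 with that and the block, 2773 with the block and no acetate replicate 2, and 0 to 448 with each library left out. For ethanol (506) they were 283, 6964, 1074, 3443, 2045, 4622 and 6466 in the same order, and 98 to 2766 with each library left out. For the mean of both treatments (232), which needs all groups, they were 137, 6475, 566, 1201, 3599 and 5162, and 16 to 1354. List genes past the threshold for acetate (2) were 1 with a pseudocount of 0.1, no filter, plain CPM, no trend, robust moderation or voom, 0 with the filter at 5 CPM, quantile scaling or only the groups compared, 34 with weights, 5 with the GC trend removed, 15 with that and the block, 20 with the block and no acetate replicate 2, and 0 to 3 with each library left out. For ethanol (2) they were 1 with quantile scaling, 41 with weights, 7 with the block, 18 with only the groups compared, 12, 31 and 40 with the GC and block settings in that order, and 0 to 16 with each library left out. The lowest acetate count, 0 by limma without control replicate 3, had 1720 genes at an unadjusted p under 0.05. The counts of list genes and the ratio of Rbm3 to Cirbp were added after seeing the data, and the causes of these shifts were not tested.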
